A study of Homo sapiens with 12 samples.

Results

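Among the 18969 genes listed for HCT116 cells, 58 encode eukaryotic translation initiation factors (symbols beginning EIF1 to EIF6) or elongation factors (EEF1 and EEF2). They were chosen by symbol, leaving out the eIF2 kinases, the eEF2 kinase and EEF1E1, and by a level of at least 1 CPM (a count scaled to the total of its library) in at least 4 of the 12 libraries. The pattern matched 60 symbols. EIF4E1B reached at most 0.297 CPM and EIF4EBP3 at most 0.480 CPM in any library, so both were left out. Just inside the limit lay EIF3CL, at 0 to 5.86 CPM and over 1 CPM in 8 libraries, and EIF1AY, at 3.08 CPM or more in every library. All 58 passed the filter on low counts that was applied to the whole table. The symbols EIF2C1 to EIF2C4 are older names of the Argonaute genes AGO1 to AGO4, which bind small RNAs, so the pattern took them in by name only, and they are described apart.

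HCT116 is an established human colorectal carcinoma line. RNA was sequenced in 3 groups of 4 libraries. In the UNC0642 recovery group, cells spent 24 h in methionine-free RPMI-1640 with UNC0642, an inhibitor of the histone H3 lysine 9 methyltransferases EHMT1 and EHMT2, and then 24 h in methionine-replete medium without the inhibitor. The DMSO recovery group went through the same restriction and refeeding with the vehicle. The remaining group is labelled 0 h and stands before the recovery, and the labels do not say whether its cells had been restricted. The dose of UNC0642 is not given in the sources used here. Whether the 4 libraries of a group are separate cultures is not said by any label, and the p-values therefore rest on a spread that could be purely technical.

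Translation begins when eIF2 brings the initiator tRNA to the small ribosomal subunit, helped by eIF1, eIF1A, eIF3 and eIF5, and when the eIF4 factors bind the mRNA cap and unwind the leader. Elongation then runs on eEF1A, which delivers aminoacyl-tRNAs, its exchange complex eEF1B, and the translocase eEF2. Amino acid supply acts on this machinery through kinases that phosphorylate eIF2 and through mTORC1, which releases eIF4E from its binding proteins. Many of these mRNAs begin with a C and a run of pyrimidines (a 5′ terminal oligopyrimidine, or TOP, motif) that puts their own translation under mTORC1. What was measured here is mRNA, not protein or phosphorylation.

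Expected counts summed to between 14658082 and 20179847 per library, and 12741 genes were tested with edgeR. Deposited gene lengths exceeded effective lengths by 120 to 127 bases in 7 libraries (long gap) and by 101 to 106 bases in 5 (short gap), and each group held both classes. Colon epithelium was checked with 7 markers, of which 6 averaged over 1 CPM and VIL1 stayed at or under 0.351 CPM. Their sum lay at 5753 to 5921 CPM after UNC0642 recovery and 5711 to 5833 CPM after DMSO recovery, above the 4876 to 4985 CPM at 0 h. Summed blood markers lay at 1.30 to 2.35 CPM after UNC0642 recovery, 1.12 to 1.81 CPM after DMSO recovery and 1.71 to 5.43 CPM at 0 h. Summed fibroblast markers, mostly COL1A1, lay at 26.1 to 34.9 CPM after UNC0642 recovery, 25.3 to 34.7 CPM after DMSO recovery and 19.0 to 38.5 CPM at 0 h, and summed endothelial markers lay at 0.391 to 0.702 CPM after UNC0642 recovery, 0.437 to 0.964 CPM after DMSO recovery and 0 to 0.353 CPM at 0 h. The part of these markers in the results was not tested, beyond leaving out libraries with COL1A2.

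Levels per transcript length (deposited FPKM, fragments scaled to transcript length and library total) spread over 3 orders of size among the factors. Means over the 12 libraries were at or above 1000 FPKM for 4 genes, between 100 and 1000 FPKM for 26, between 10 and 100 FPKM for 21 and below 10 FPKM for 7. EEF1A1, the main carrier of aminoacyl-tRNA, averaged 3157 FPKM and led the order. It was followed by EIF5A (1299 FPKM), which helps ribosomes through difficult peptide bonds, by the translocase gene EEF2 (1173 FPKM), and by EEF1G (1053 FPKM), a subunit of the exchange complex. EIF4A1, the helicase of cap-dependent initiation, came next at 745 FPKM and EEF1B2 at 648 FPKM. The rarest after EIF3CL (0.760 FPKM) were EIF2C4 at 1.57 FPKM and EIF4E3 at 1.66 FPKM.

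Subunits of the same complex did not share a level. Within eIF3 the means ran from 49.96 FPKM for EIF3J, a loosely held subunit, to 421 FPKM for EIF3E, leaving out the near-identical copy EIF3CL. The 5 eIF2B genes lay between 13.2 FPKM (EIF2B3) and 41.3 FPKM (EIF2B1). The eIF2 genes lay higher, at 62.1 FPKM for the alpha subunit gene EIF2S1, 99.7 FPKM for the beta gene EIF2S2 and 116 FPKM for the gamma gene EIF2S3. Several paralogs lay far below their main forms, with EEF1A2 at 264 FPKM, EIF4A2 at 118 FPKM, EIF1B at 29.4 FPKM and EIF5A2 at 4.64 FPKM, beside EEF1A1, EIF4A1, EIF1 (317 FPKM) and EIF5A.

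**Figure D1:**
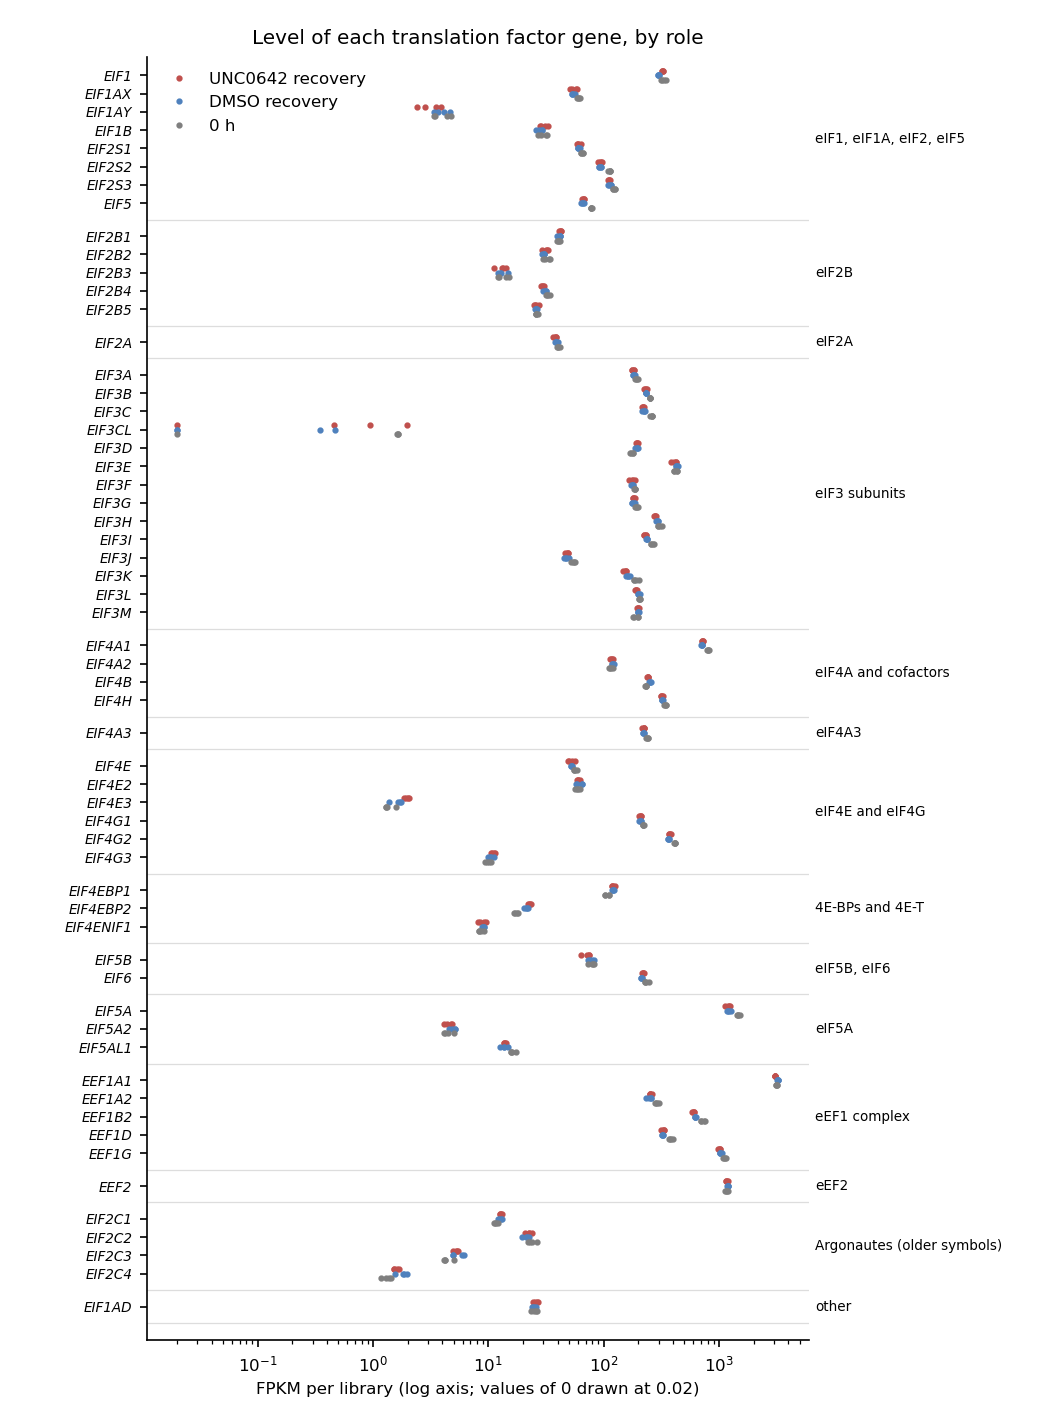
FPKM of each of the 58 genes in each library on a log axis, grouped by role, with UNC0642 recovery, DMSO recovery and 0 h in separate colours and values of 0 drawn at 0.02. The spread between genes, with means between 0.760 FPKM for EIF3CL and 3157 FPKM for EEF1A1, is far wider than the spread between groups.

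Because TOP motifs sit at the transcript's first base, annotated starts are shown for the members on which the later comparisons turn. RefSeq (GRCh38.p14) gave a start for 47 of the 58 genes. Each window holds 10 bases before the start and 20 from it, 5′ to 3′ on the gene's strand, and capitals mark an unbroken pyrimidine run that begins with C at the start and is at least 5 bases long. The first 7 have such a run and the last 6 do not.
EEF1A1: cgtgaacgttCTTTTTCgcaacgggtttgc
EEF2: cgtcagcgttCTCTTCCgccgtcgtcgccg
EEF1B2: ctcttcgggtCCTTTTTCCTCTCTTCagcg
EIF4B: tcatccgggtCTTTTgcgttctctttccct
EIF3D: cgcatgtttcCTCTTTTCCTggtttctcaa
EIF3K: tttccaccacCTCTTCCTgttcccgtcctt
EIF4A2: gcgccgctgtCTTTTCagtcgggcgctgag
EIF1: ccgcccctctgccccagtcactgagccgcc
EIF5: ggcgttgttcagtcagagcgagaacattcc
EIF4A1: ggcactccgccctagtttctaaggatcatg
EEF1G: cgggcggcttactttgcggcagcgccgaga
EIF4G2: tgtcggaagcacttccctaacttgcgcctg
EIF4EBP2: gccttcgcccgcttccggtcgtcgtcgtcg

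The windows with a run lie at chr6:73521013-73521042 on the minus strand (EEF1A1), chr19:3985444-3985473 minus (EEF2), chr2:206159885-206159914 plus (EEF1B2, which has other annotated starts), chr12:53006446-53006475 plus (EIF4B), chr22:36529147-36529176 minus (EIF3D), chr19:38619178-38619207 plus (EIF3K) and chr3:186783567-186783596 plus (EIF4A2). Those without lie at chr17:41688875-41688904 plus (EIF1), chr14:103334227-103334256 plus (EIF5, with other starts), chr17:7572815-7572844 plus (EIF4A1), chr11:62573872-62573901 minus (EEF1G), chr11:10807977-10808006 minus (EIF4G2, with other starts) and chr10:70404135-70404164 plus (EIF4EBP2). Runs were 5 bases long in EIF4B, 7 in EEF1A1 and EEF2, and 16 in EEF1B2. In all, 11 of the 47 genes (23.4%) had a run at an annotated start, against 5.14% of the 27305 genes of the table and 72.3% of its 65 ribosomal protein genes. The table was not limited by level in these cells, as the members were, and a run at any annotated start counted. These shares were not tested against each other. The other runs were in EIF3M, EIF3F, EIF2S3 and EIF2A. An annotated start can differ from the start used in these cells, and a run is a description of letters, not a measure of translation.

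Set against 0 h, translation factor mRNAs were mostly lower after recovery, by small amounts. After UNC0642 recovery 37 of 58 fell, 4 rose and 17 were not called (edgeR, adjusted p under 0.05), where 23.6% of all genes tested fell and 23.4% rose. After DMSO recovery 35 fell, 6 rose and 17 were not called, where 21.7% of all genes tested fell and 22.4% rose. The median log2 fold change of the 58 was -0.15 after UNC0642 recovery and -0.14 after DMSO recovery, and that of all genes tested was 0.01 in both. No overlap between the 4 recovered and the 4 0 h libraries was seen for 34 lower and 5 higher members with UNC0642 (40.2% of all genes tested did not overlap) and for 34 lower and 4 higher members with DMSO (38.3%). Both comparisons use the same 0 h libraries.

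The changes were below 1.5-fold for 57 of the 58 genes, the exception being EIF3CL. Over 1.2-fold were 11 members after UNC0642 recovery and 12 after DMSO recovery. The median SE of a member's log2 fold change was 0.03, so changes of a few percent could be told from the spread in the abundant genes. Together, the 58 genes took 3.31% ± 0.02 of the counts after UNC0642 recovery, 3.38% ± 0.02 after DMSO recovery and 3.519% ± 0.003 at 0 h (SD, n = 4 each).

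Scaling mattered for the balance of calls. With library totals in place of TMM scaling, 67.5% of all called genes were higher in both comparisons with 0 h, where 49.8% (UNC0642) and 50.8% (DMSO) had been. The members then split into 8 higher and 31 lower after UNC0642 recovery and 8 higher and 30 lower after DMSO recovery. Calls lost with library totals were those of EEF2, EIF1, EIF1AY, EIF2C2, EIF3E and EIF3G after UNC0642 recovery, and of EIF1B, EIF2A, EIF2B2, EIF2B4 and EIF3L after DMSO recovery. The median of all genes moved by 0.06 at most, so the members kept a lower median, at -0.09 in both.

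**Figure D2:**
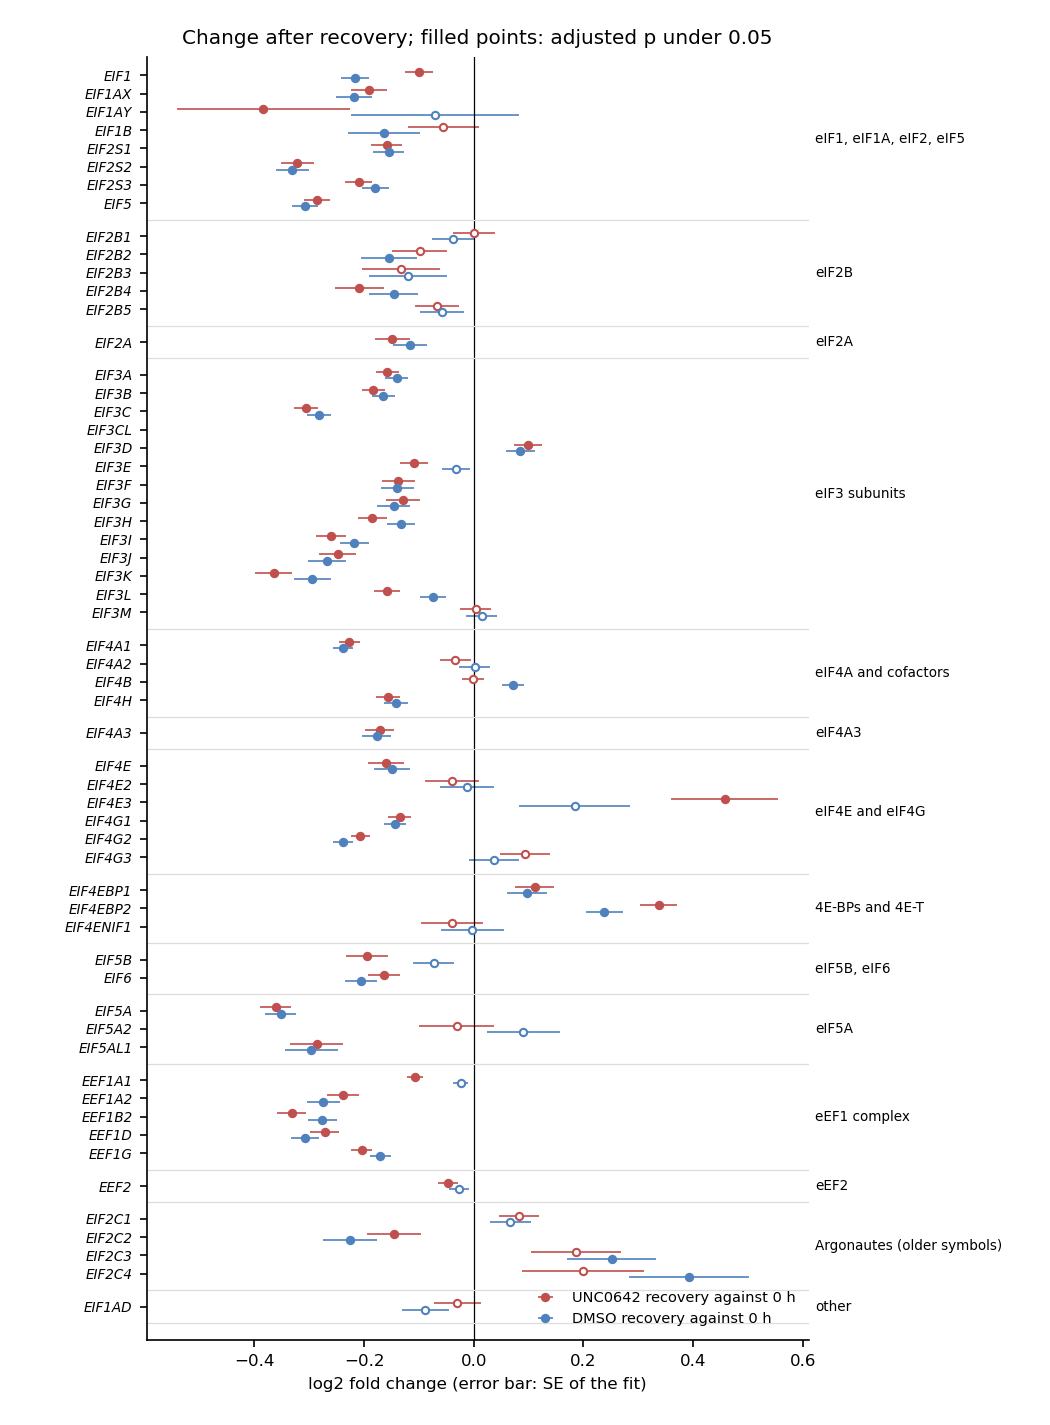
Log2 fold change with its SE for 57 genes by role, UNC0642 recovery against 0 h above DMSO recovery against 0 h, with filled points at an adjusted p under 0.05. EIF3CL, with an SE of 0.57 or more in each comparison, is left out. Most points lie left of 0, with the 4E-BP genes, EIF3D, EIF4E3 and some Argonautes on the right.

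The factors that carry the initiator tRNA and choose the start codon were lower nearly throughout. Of 8 genes 7 fell after UNC0642 recovery and 7 after DMSO recovery, where 23.6% and 21.7% of all genes tested fell. The median log2 fold change of the 8 was -0.20 in both comparisons. EIF5, whose protein makes eIF2 hydrolyse its GTP at the start codon, had 375, 376, 381 and 366 CPM after UNC0642 recovery, 359, 365, 379 and 371 CPM after DMSO recovery, and 452, 464, 454 and 455 CPM at 0 h. The recovered libraries were all below the 0 h libraries, with a log2 fold change of -0.29 ± 0.02 (adjusted p = 9.03e-12) for UNC0642 and -0.31 ± 0.02 (adjusted p = 2.28e-12) for DMSO. Among the eIF2 subunits, EIF2S2 had the largest difference from 0 h, at -0.32 ± 0.03 with UNC0642 and -0.33 ± 0.03 with DMSO, and EIF2S1 the smallest, at -0.16 ± 0.03 with UNC0642 and -0.16 ± 0.03 with DMSO. EIF1AX, for the scanning factor eIF1A, changed by -0.19 ± 0.03 with UNC0642 and -0.22 ± 0.03 with DMSO. Its Y-linked copy EIF1AY was low and overlapped 0 h in both groups. Against 0 h it was called with UNC0642 only (-0.38 ± 0.16, adjusted p = 0.0441), and the call was lost without 0 h replicates 1 or 4 or UNC0642 replicates 2 or 4 (adjusted p 0.102 to 0.166). EIF1B changed by -0.06 ± 0.07 (not called) with UNC0642 and by -0.16 ± 0.07 with DMSO (adjusted p = 0.0421), at 26.7 ± 1.86 CPM with UNC0642 and 24.7 ± 1.58 CPM with DMSO, against 27.7 ± 2.199 CPM at 0 h. Those groups overlapped, and the DMSO call was lost when any of 4 libraries was left out (adjusted p 0.0904 to 0.159 without 0 h replicates 1 or 3 or DMSO replicates 2 or 4).

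EIF1, whose protein guards against initiation at wrong codons, fell in both recovered groups and less with the inhibitor. It had 393, 386, 379 and 385 CPM after UNC0642 recovery, 365, 358, 351 and 350 CPM after DMSO recovery, and 415, 432, 405 and 400 CPM at 0 h. The 3 groups did not overlap, with UNC0642 between the others. The log2 fold change was 0.12 ± 0.03 for UNC0642 over DMSO (adjusted p = 0.0039), -0.10 ± 0.03 for UNC0642 over 0 h (adjusted p = 0.00175) and -0.22 ± 0.03 for DMSO over 0 h (adjusted p = 2.53e-08). The UNC0642 call against 0 h was lost with library totals (-0.04, adjusted p = 0.194) and with log2(FPKM + 1) (-0.04, adjusted p = 0.268). It was also lost with a correction for the trend with gene length (-0.05, adjusted p = 0.0598). That change was -0.15 within the long-gap libraries (adjusted p = 0.00036) and -0.05 within the short-gap libraries.

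The exchange factor eIF2B reloads eIF2 with GTP and is blocked by phosphorylated eIF2. After UNC0642 recovery 1 of its 5 genes fell, EIF2B4 at -0.21 ± 0.05. After DMSO recovery 2 fell, EIF2B2 at -0.15 ± 0.05 and EIF2B4 at -0.15 ± 0.05. Of all genes tested 23.6% fell with UNC0642 and 21.7% with DMSO. The EIF2B2 call was lost without 0 h replicate 2 (-0.12, adjusted p = 0.0674). EIF2B1, the most abundant of them, had 75.0, 71.8, 74.1 and 71.8 CPM after UNC0642 recovery, 68.8, 71.3, 73.0 and 72.1 CPM after DMSO recovery, and 74.6, 73.3, 73.4 and 71.4 CPM at 0 h. These ranges overlapped throughout and no comparison was called. EIF2A, a separate initiator tRNA-binding protein that is no subunit of eIF2, fell in both groups, to 141 ± 4.68 CPM after UNC0642 recovery and 144 ± 3.46 CPM after DMSO recovery, against 156 ± 3.94 CPM at 0 h. Its DMSO call was lost with library totals (-0.06, adjusted p = 0.104) and with log2(FPKM + 1) (-0.06, adjusted p = 0.132).

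Within eIF3, the large scaffold on the small ribosomal subunit, 11 of 14 genes fell in each comparison with 0 h. In each, 1 rose and 2 were not called. Among all genes tested, 23.6% fell and 23.4% rose with UNC0642, and 21.7% fell and 22.4% rose with DMSO. EIF3C, for a core subunit, had 635, 620, 641 and 640 CPM after UNC0642 recovery, 630, 639, 662 and 647 CPM after DMSO recovery, and 786, 790, 788 and 771 CPM at 0 h. The 0 h libraries stood clear above, and the log2 fold change was -0.31 ± 0.02 for UNC0642 (adjusted p = 1.94e-13) and -0.28 ± 0.02 for DMSO (adjusted p = 1.71e-12). EIF3CL is a near-identical copy, so reads cannot be divided firmly between the pair. Its call for DMSO over 0 h (-2.61 ± 0.73, adjusted p = 0.00378) rests on overlapping groups. With the counts of both copies summed, an alternative chosen after the data were seen, the change was -0.31 for UNC0642 and -0.29 for DMSO.

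The subunits did not move by the same amount. EIF3K, for a small outer subunit, had the largest called fall within eIF3 after UNC0642 recovery, at -0.36 ± 0.03, with -0.29 ± 0.03 after DMSO recovery. EIF3I and EIF3J changed by between -0.22 and -0.27 in the 2 comparisons, while EIF3A, EIF3B, EIF3F, EIF3G and EIF3H lay between -0.13 and -0.18. EIF3M did not pass the test in either comparison. It averaged 220 ± 1.37 CPM after UNC0642 recovery and 222 ± 2.86 CPM after DMSO recovery against 219 ± 8.81 CPM at 0 h. With DMSO it was called higher with library totals (0.07, adjusted p = 0.0464) and with the trend in gene length (0.07, adjusted p = 0.0409). The same held with log2(FPKM + 1) (0.08, adjusted p = 0.0391).

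EIF3D, whose protein can itself bind the cap of certain mRNAs, was the eIF3 gene that rose. It had 351, 349, 359 and 359 CPM after UNC0642 recovery, 353, 337, 361 and 352 CPM after DMSO recovery, and 340, 334, 329 and 319 CPM at 0 h. The UNC0642 libraries lay above all 0 h libraries, while DMSO replicate 2 overlapped them. The log2 fold change was 0.10 ± 0.03 for UNC0642 (adjusted p = 0.00207) and 0.08 ± 0.03 for DMSO (adjusted p = 0.00814). Within the long-gap libraries it was 0.07 with UNC0642 (adjusted p = 0.12) and 0.05 with DMSO (adjusted p = 0.199), and within the short-gap libraries 0.13 with UNC0642 (adjusted p = 0.00494) and 0.12 with DMSO (adjusted p = 0.0438).

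EIF3E had 588, 574, 556 and 531 CPM after UNC0642 recovery, 589, 601, 584 and 599 CPM after DMSO recovery, and 622, 618, 591 and 594 CPM at 0 h. The UNC0642 libraries lay below all of the 0 h libraries (-0.11 ± 0.03, adjusted p = 0.00089), and the DMSO libraries overlapped them (-0.03 ± 0.03, adjusted p = 0.335). The UNC0642 call was lost with library totals (-0.05, adjusted p = 0.124) and with log2(FPKM + 1) (-0.05, adjusted p = 0.241). The difference between UNC0642 and DMSO was -0.08 ± 0.03 and did not pass the test (adjusted p = 0.088), but did without UNC0642 replicate 1 (-0.10, adjusted p = 0.0296). EIF3L, which with EIF3K forms an outer part of the complex, had 350, 339, 353 and 342 CPM after UNC0642 recovery, 365, 359, 375 and 369 CPM after DMSO recovery, and 391, 389, 381 and 384 CPM at 0 h. None of the 3 groups overlapped another, and UNC0642 was lowest. The change was -0.08 ± 0.02 for UNC0642 over DMSO (adjusted p = 0.033), -0.16 ± 0.02 for UNC0642 over 0 h (adjusted p = 1.71e-06) and -0.07 ± 0.02 for DMSO over 0 h (adjusted p = 0.0114). The DMSO call was lost with library totals (-0.02, adjusted p = 0.492), with the trend in gene length (-0.05, adjusted p = 0.0538) and with log2(FPKM + 1) (-0.01, adjusted p = 0.645).

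The helicase eIF4A unwinds mRNA leaders, and eIF4B and eIF4H stimulate it. EIF4A1 had 1220, 1220, 1224 and 1237 CPM after UNC0642 recovery, 1226, 1191, 1219 and 1225 CPM after DMSO recovery, and 1426, 1461, 1431 and 1416 CPM at 0 h. The recovered libraries were tightly grouped below the 0 h libraries, at -0.23 ± 0.02 for UNC0642 (adjusted p = 7.56e-12) and -0.24 ± 0.02 for DMSO (adjusted p = 3.11e-12). Its paralog EIF4A2 had 208, 208, 199 and 207 CPM after UNC0642 recovery, 211, 208, 214 and 209 CPM after DMSO recovery, and 218, 204, 207 and 212 CPM at 0 h. Those overlapped, and neither comparison with 0 h was called (-0.03 ± 0.03 for UNC0642 and 0.00 ± 0.03 for DMSO). EIF4H fell to 755 ± 16.8 CPM after UNC0642 recovery and 762 ± 15.5 CPM after DMSO recovery, against 841 ± 15.1 CPM at 0 h. EIF4A3, a relative that marks exon junctions on spliced mRNA, fell to 353 ± 11.6 CPM after UNC0642 recovery and 352 ± 6.97 CPM after DMSO recovery, against 398 ± 8.50 CPM at 0 h.

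EIF4B was higher in the DMSO group than in both others. It had 920, 933, 935 and 944 CPM after UNC0642 recovery, 995, 980, 986 and 965 CPM after DMSO recovery, and 917, 939, 931 and 948 CPM at 0 h. The DMSO libraries lay above the other 8, and the UNC0642 and 0 h libraries covered the same range. The log2 fold change was -0.07 ± 0.02 for UNC0642 over DMSO (adjusted p = 0.0247), 0.07 ± 0.02 for DMSO over 0 h (adjusted p = 0.00362) and -0.00 ± 0.02 for UNC0642 over 0 h (adjusted p = 0.963). With library totals the last was 0.06, and with a correction for the trend with gene length the DMSO change was 0.04 (adjusted p = 0.102).

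For the cap-binding factor eIF4E and its scaffold eIF4G, 3 of 6 genes fell in each comparison, and 1 rose with UNC0642. Among all genes tested, 23.6% fell and 23.4% rose with UNC0642, and 21.7% fell and 22.4% rose with DMSO. EIF4E fell to 174 ± 10.6 CPM after UNC0642 recovery and 175 ± 1.27 CPM after DMSO recovery, against 194 ± 3.88 CPM at 0 h. EIF4G2 (DAP5), a scaffold that lacks the eIF4E site, had 1387, 1413, 1394 and 1394 CPM after UNC0642 recovery, 1365, 1365, 1362 and 1374 CPM after DMSO recovery, and 1584, 1625, 1627 and 1613 CPM at 0 h. The groups were far apart against their spread, at -0.21 ± 0.02 for UNC0642 (adjusted p = 2.1e-11) and -0.24 ± 0.02 for DMSO (adjusted p = 1.03e-12). The main scaffold gene EIF4G1 fell by less, to 1117 ± 25.2 CPM after UNC0642 recovery and 1111 ± 12.8 CPM after DMSO recovery, against 1227 ± 23.3 CPM at 0 h. EIF4G3 did not pass the test in either comparison. It averaged 66.3 ± 1.79 CPM after UNC0642 recovery, 63.8 ± 2.74 CPM after DMSO recovery and 62.1 ± 4.05 CPM at 0 h. With UNC0642 it was called higher with library totals (0.15, adjusted p = 0.00701) and log2(FPKM + 1) (0.12, adjusted p = 0.0453). The same held without 0 h replicate 2 (0.13, adjusted p = 0.0353). EIF4E2, whose product competes for caps and represses, did not pass the test either (-0.04 ± 0.05 with UNC0642 and -0.01 ± 0.05 with DMSO).

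EIF4E3, an atypical cap-binding relative, was rare but had the largest called rise among the factor genes after UNC0642 recovery. It had 11.98, 11.3, 10.9 and 12.2 CPM after UNC0642 recovery, 8.26, 9.68, 10.4 and 10.1 CPM after DMSO recovery, and 9.73, 7.88, 8.14 and 7.99 CPM at 0 h. The UNC0642 libraries lay above the other 8, and the DMSO and 0 h libraries overlapped. The change was 0.46 ± 0.10 for UNC0642 over 0 h (adjusted p = 0.000261), 0.18 ± 0.10 for DMSO over 0 h (adjusted p = 0.141) and 0.27 ± 0.09 for UNC0642 over DMSO (adjusted p = 0.0947). Within the long-gap libraries the change over 0 h with UNC0642 was 0.34 (adjusted p = 0.055).

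The genes of the eIF4E-binding proteins, which block cap-dependent initiation when mTORC1 is low, rose in both recovered groups. EIF4EBP2 had 164, 163, 173 and 170 CPM after UNC0642 recovery, 156, 158, 161 and 149 CPM after DMSO recovery, and 126, 136, 139 and 129 CPM at 0 h. None of the groups overlapped, and UNC0642 was highest. The change was 0.34 ± 0.03 for UNC0642 over 0 h (adjusted p = 5.45e-10), 0.24 ± 0.03 for DMSO over 0 h (adjusted p = 7.26e-07) and 0.10 ± 0.03 for UNC0642 over DMSO (adjusted p = 0.0771). EIF4EBP1, the more abundant form per length, had 88.8, 90.4, 87.4 and 89.0 CPM after UNC0642 recovery, 89.2, 87.0, 89.1 and 86.7 CPM after DMSO recovery, and 85.3, 83.8, 79.8 and 79.9 CPM at 0 h. Both recovered groups lay just above 0 h, at 0.11 ± 0.04 with UNC0642 (adjusted p = 0.0114) and 0.10 ± 0.04 with DMSO (adjusted p = 0.0284). The DMSO call was lost when 0 h replicate 3 or 4, or DMSO replicate 1 or 3, was left out (adjusted p 0.0513 to 0.0909). Within the long-gap libraries neither EIF4EBP1 call held, at 0.07 with UNC0642 (adjusted p = 0.291) and 0.05 with DMSO (adjusted p = 0.441). Within the short-gap libraries the EIF4EBP1 changes were 0.15 with UNC0642 and 0.16 with DMSO. EIF4ENIF1, whose product takes eIF4E into the nucleus, did not pass the test in either comparison (-0.04 ± 0.06 with UNC0642 and -0.00 ± 0.06 with DMSO).

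**Figure D3:**
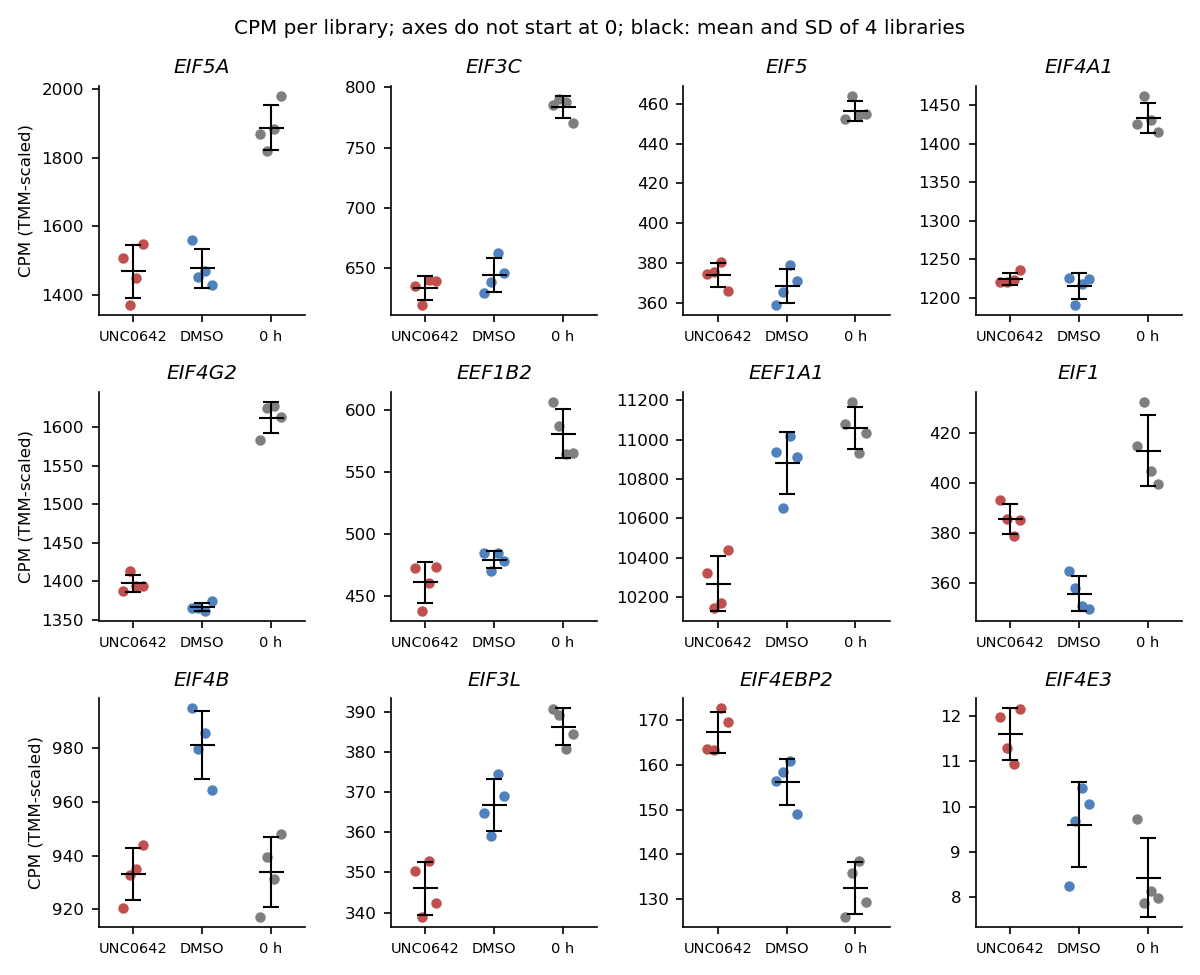
TMM-scaled CPM in each library for 12 genes, with the mean and SD of the 4 libraries per group in black and axes that do not start at 0. EIF5A, EIF3C, EIF5, EIF4A1, EIF4G2 and EEF1B2 are low in both recovered groups, EIF4EBP2 is high in both, and EEF1A1, EIF1, EIF4B and EIF3L differ between UNC0642 and DMSO.

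Of the factors that act at subunit joining, EIF5B, the GTPase of that step, changed by -0.19 ± 0.04 after UNC0642 recovery (adjusted p = 8.15e-05) and by -0.07 ± 0.04 after DMSO recovery (adjusted p = 0.117), which passed with the trend in gene length (-0.12, adjusted p = 0.00503). The DMSO change also passed with no filter, with only the 8 libraries compared, and without 0 h replicate 2 or DMSO replicate 4 (adjusted p 0.0186 to 0.0499). The difference between UNC0642 and DMSO, -0.12 ± 0.04, did not pass the test (adjusted p = 0.0602). That difference passed with no filter (adjusted p = 0.00233). It also passed without 0 h replicate 2, DMSO replicate 1, or UNC0642 replicate 1 or 3 (adjusted p 0.0274 to 0.0424). EIF6, which keeps free large subunits from joining, had 216, 208, 211 and 220 CPM after UNC0642 recovery, 208, 205, 210 and 206 CPM after DMSO recovery, and 252, 230, 233 and 241 CPM at 0 h. Both recovered groups lay below 0 h, at -0.16 ± 0.03 with UNC0642 and -0.21 ± 0.03 with DMSO.

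EIF5A, for a protein that carries hypusine, was among the larger falls. It had 1509, 1372, 1450 and 1548 CPM after UNC0642 recovery, 1560, 1453, 1471 and 1430 CPM after DMSO recovery, and 1870, 1820, 1882 and 1978 CPM at 0 h. The 0 h libraries lay above all 8 recovered libraries. The change was -0.36 ± 0.03 for UNC0642 (adjusted p = 2.61e-12) and -0.35 ± 0.03 for DMSO (adjusted p = 5.81e-12). The level fell by 22.1% with UNC0642 and fell by 21.6% with DMSO. EIF5AL1, an intronless near-copy whose reads may come from EIF5A, changed by -0.29 ± 0.05 with UNC0642 and -0.30 ± 0.05 with DMSO, and with both summed the change was -0.36 with UNC0642 and -0.35 with DMSO. The paralog EIF5A2 did not pass the test, at 24.2 ± 1.71 CPM after UNC0642 recovery and 26.4 ± 1.44 CPM after DMSO recovery, against 24.8 ± 2.31 CPM at 0 h.

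Of the 5 eEF1 genes, 5 fell after UNC0642 recovery and 4 after DMSO recovery, where 23.6% and 21.7% of all genes tested fell. EEF1B2, for the nucleotide exchange subunit, had 473, 438, 461 and 474 CPM after UNC0642 recovery, 485, 471, 485 and 479 CPM after DMSO recovery, and 606, 587, 565 and 565 CPM at 0 h. All recovered libraries were below 0 h, at -0.33 ± 0.03 with UNC0642 (adjusted p = 2.76e-12) and -0.28 ± 0.03 with DMSO (adjusted p = 2.12e-10). EEF1D had 436, 402, 422 and 440 CPM after UNC0642 recovery, 419, 405, 418 and 416 CPM after DMSO recovery, and 525, 510, 505 and 512 CPM at 0 h, a change of -0.27 ± 0.03 with UNC0642 (adjusted p = 1.76e-10) and -0.31 ± 0.03 with DMSO (adjusted p = 1.54e-11). EEF1G changed by -0.20 ± 0.02 with UNC0642 and -0.17 ± 0.02 with DMSO. EEF1A2, a form best known from muscle and neurons, had 432, 426, 431 and 450 CPM after UNC0642 recovery, 445, 436, 395 and 420 CPM after DMSO recovery, and 494, 512, 537 and 507 CPM at 0 h, and did not overlap 0 h in either group.

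EEF1A1 had 10320, 10142, 10167 and 10440 CPM after UNC0642 recovery, 10936, 10652, 11018 and 10913 CPM after DMSO recovery, and 11083, 11190, 10934 and 11032 CPM at 0 h. The UNC0642 libraries lay below the other 8, and the DMSO libraries overlapped 0 h. The change was -0.11 ± 0.01 for UNC0642 over 0 h (adjusted p = 1.5e-07) and -0.02 ± 0.01 for DMSO over 0 h (adjusted p = 0.177). With a correction for the trend with gene length the DMSO change was -0.05 and was called (adjusted p = 0.00166). EEF1A1 alone made up 31.4% of the members' counts after UNC0642 recovery, 32.5% after DMSO recovery and 30.6% at 0 h. It has many processed pseudogenes, and how reads were divided among them is not given in the sources used here.

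EEF2 had 3467, 3440, 3532 and 3628 CPM after UNC0642 recovery, 3601, 3559, 3575 and 3522 CPM after DMSO recovery, and 3587, 3538, 3724 and 3682 CPM at 0 h. All groups overlapped. Its change was -0.05 ± 0.02 for UNC0642 (adjusted p = 0.0338) and -0.03 ± 0.02 for DMSO (adjusted p = 0.228). With a correction for the trend with gene length the DMSO change was -0.04 and was called (adjusted p = 0.031). The UNC0642 call was lost when any of 5 libraries was left out (0 h replicate 3 or 4, UNC0642 replicate 1, 2 or 3, adjusted p 0.0517 to 0.136). The UNC0642 value was 0.01 with library totals.

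The Argonaute genes under their older symbols did not move together. EIF2C2 (AGO2), the form able to cut its targets, fell to 74.9 ± 4.26 CPM after UNC0642 recovery and 70.9 ± 3.77 CPM after DMSO recovery, against 82.6 ± 6.34 CPM at 0 h, and the UNC0642 call (adjusted p = 0.0142) was lost without 0 h replicate 2 (-0.09, adjusted p = 0.126) or UNC0642 replicate 1 (-0.11, adjusted p = 0.074). EIF2C4 (AGO4) had 6.93, 7.57, 7.45 and 6.99 CPM after UNC0642 recovery, 8.57, 8.28, 7.14 and 9.02 CPM after DMSO recovery, and 6.77, 5.63, 6.61 and 6.24 CPM at 0 h. Both recovered groups lay above 0 h, and the change was called with DMSO (0.39 ± 0.11, adjusted p = 0.00394) and not with UNC0642 (0.20 ± 0.11, adjusted p = 0.143). EIF2C3 (AGO3) was called with DMSO at 0.25 ± 0.08 (adjusted p = 0.0121), with overlapping groups, and lost the call without DMSO replicate 3 (0.19, adjusted p = 0.074). With UNC0642 it was not called, but was higher with library totals (0.25, adjusted p = 0.0144) and log2(FPKM + 1) (0.21, adjusted p = 0.0299). It also passed with the replicate block (0.19, adjusted p = 0.0379) and without 0 h replicate 3, DMSO replicate 1 or UNC0642 replicate 1 (adjusted p 0.017 to 0.0496). EIF2C1 (AGO1) was not called in any comparison, but rose with library totals (0.14 with UNC0642, adjusted p = 0.00226, and 0.12 with DMSO, adjusted p = 0.0095), with log2(FPKM + 1) (adjusted p = 0.0138 and 0.0311), and with UNC0642 without 0 h replicate 3 (0.11, adjusted p = 0.025). EIF1AD was not called either, and was lower with DMSO without 0 h replicate 1 (-0.12, adjusted p = 0.025). Without the Argonautes, 36 of 54 genes fell and 4 rose after UNC0642 recovery, and 34 fell and 4 rose after DMSO recovery. Among all genes tested, 23.6% fell and 23.4% rose with UNC0642, and 21.7% fell and 22.4% rose with DMSO.

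The comparison of UNC0642 with DMSO recovery asks whether the inhibitor, present only during restriction, left a mark after refeeding. In it 3 members fell (EEF1A1, EIF4B and EIF3L), 1 rose (EIF1) and 54 were not called, where 4.58% of all genes tested were called, 2.53% lower and 2.06% higher. The median over the 58 was -0.01, against -0.00 over all genes tested. Groups did not overlap for 4 higher and 3 lower members, where 10.5% of all genes tested did not overlap. EEF1A1 averaged 10267 ± 140 CPM after UNC0642 recovery and 10880 ± 158 CPM after DMSO recovery, a log2 fold change of -0.08 ± 0.01 (adjusted p = 0.000131). Its level fell by 5.63%. EIF1 was 8.44% higher, EIF4B fell by 4.91% and EIF3L fell by 5.67%. For 47 of the 54 members not called, 2 SE on either side of the log2 fold change stayed within 0.2 of 0. The other 7 were EIF1AY, EIF1B, EIF2C3, EIF2C4, EIF3CL, EIF4E3 and EIF5A2, all of low level.

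Leaving out 1 library at a time kept the EEF1A1 and EIF1 calls. The EIF4B call was lost without DMSO replicates 1, 2 or 3 or UNC0642 replicates 1 or 3 (adjusted p 0.0554 to 0.0844), and the EIF3L call without DMSO replicates 3 or 4 or UNC0642 replicates 2 or 4 (adjusted p 0.0858 to 0.118). Within the long-gap libraries (2 UNC0642, 3 DMSO) the changes were -0.10 for EEF1A1 (adjusted p = 0.000177), 0.12 for EIF1 (adjusted p = 0.0195), -0.06 for EIF4B (adjusted p = 0.21) and -0.09 for EIF3L (adjusted p = 0.167). Within the short-gap libraries, where DMSO has 1 library that is assumed to vary like the others, they were -0.08, 0.09, -0.09 and -0.08, and none was called (adjusted p 0.0859 to 0.633).

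**Figure D4:**
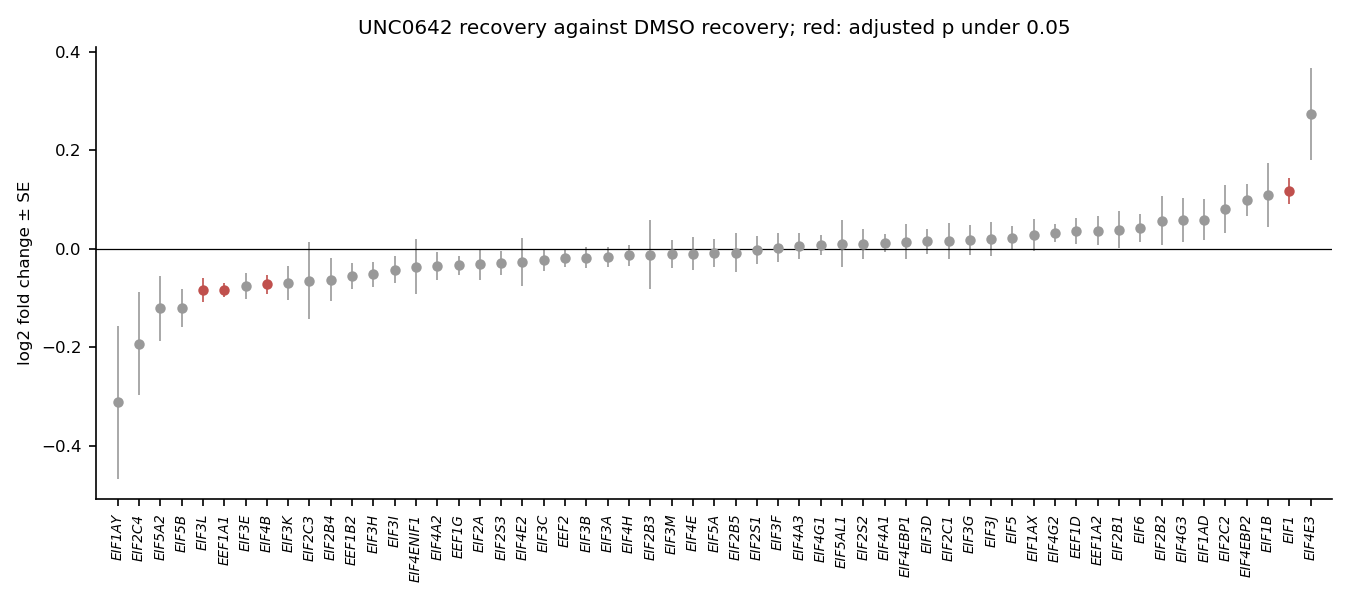
Log2 fold change with its SE for UNC0642 over DMSO recovery in 57 genes ordered by value, with red points at an adjusted p under 0.05. EIF3CL (2.03 ± 0.75, not called) is left out. EIF1 (0.12) is the called gene on the right, and EIF3L, EEF1A1 and EIF4B (-0.07 to -0.08) are called on the left.

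Ratios of FPKM within each library set paralogs and partners against each other without any scaling between libraries. The ratio EIF4A2 to EIF4A1 was 0.163 ± 0.004 after UNC0642 recovery, 0.169 ± 0.002 after DMSO recovery and 0.143 ± 0.006 at 0 h (SD, n = 4 each), and both recovered groups were above every 0 h library. EIF4EBP1 to EIF4E was 2.31 ± 0.11 after UNC0642 recovery, 2.28 ± 0.05 after DMSO recovery and 1.90 ± 0.08 at 0 h, so the mRNA of 4E-BP1 stood higher against that of its target eIF4E after recovery. EEF1A2 to EEF1A1 was 0.0832 ± 0.0010 after UNC0642 recovery, 0.0767 ± 0.0046 after DMSO recovery and 0.0910 ± 0.0036 at 0 h, with no overlap among the 3 groups. EIF4G2 to EIF4G1 was 1.80 ± 0.05 after UNC0642 recovery, 1.77 ± 0.02 after DMSO recovery and 1.88 ± 0.02 at 0 h, and EIF4G3 to EIF4G1 was 0.0526 ± 0.0018 after UNC0642 recovery, 0.0506 ± 0.0018 after DMSO recovery and 0.0453 ± 0.0025 at 0 h. EIF4EBP2 to EIF4EBP1 was 0.189 ± 0.008 after UNC0642 recovery, 0.177 ± 0.004 after DMSO recovery and 0.163 ± 0.012 at 0 h, and EIF1B to EIF1 was 0.0932 ± 0.0060 after UNC0642 recovery, 0.0939 ± 0.0056 after DMSO recovery and 0.0906 ± 0.0081 at 0 h, with overlap. Each of 7 ratios was compared in 3 ways by a two-sided exact permutation test of 4 against 4, which cannot go below p = 0.0286. Of the 21 tests 12 reached that value, which adjusts to 0.05 over the 21, so none was under 0.05 after adjustment.

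The deposited gene length is an average over isoforms weighted by their estimated share, so a shift in it is a shift in those estimates. It varied for 16 members. After UNC0642 recovery it differed from 0 h for 2 of them (limma), where 1.18% of 4504 genes did. EIF4G2 averaged 3885.3 ± 0.7 bases against 3891.3 ± 1.5 bases (adjusted p = 0.0036), and EIF4H 2502.0 ± 0.9 bases against 2504.2 ± 0.1 bases (adjusted p = 0.0372). Of these 2 calls 1 was lost without 0 h replicates 1, 2 or 4, DMSO replicates 2 or 4, or UNC0642 replicates 2, 3 or 4. With DMSO recovery no member was called (1.2% of genes were, and 5 members had an unadjusted p under 0.05), and between UNC0642 and DMSO none either (0% of genes, and 3 members). The called shifts were a few bases. The largest in bases was in EIF4G3, at 6239 ± 31.7 and 6251 ± 31.2 bases after UNC0642 and DMSO recovery against 6161 ± 103 bases at 0 h, and it was not called.

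The changes are set beside the start windows as a description chosen after the data were seen, with no test. Against 0 h with UNC0642 the median log2 fold change was -0.11 over the 11 with a run and -0.16 over the 36 without, and with DMSO -0.03 with a run and -0.15 without. EEF1B2 and EIF3K, both with long runs, were among the largest falls, and EIF3D and EIF4B, which rose after DMSO recovery have runs too. Between UNC0642 and DMSO the medians were -0.03 and 0.00, and 2 of the 11 fell (EEF1A1 and EIF4B). A list of 10 factor genes known to have TOP mRNAs (EEF1A1, EEF1B2, EEF1D, EEF1G, EEF2, EIF3A, EIF3E, EIF3F, EIF3H and EIF4B) is not the same as the class with a run, since EEF1G has no run at its annotated start and EEF1D, EIF3A, EIF3E and EIF3H have no start in the table used. The list gave 9 lower and 0 higher after UNC0642 recovery, 6 lower and 1 higher after DMSO recovery, and 2 lower between UNC0642 and DMSO. Of all genes tested, 23.6% fell and 23.4% rose with UNC0642 over 0 h, and 21.7% fell and 22.4% rose with DMSO. Between UNC0642 and DMSO 2.53% of all genes tested fell. The E-box CACGTG, which MYC and its relatives bind, reads the same on both strands. It was found in the promoter window (before and just after the start) of 10 of 47 members (21.3%) and of 8.78% of all genes in the table. That table was not limited by level, as the members were, and a site at any annotated start counted. The difference in share was not tested.

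**Figure D5:**
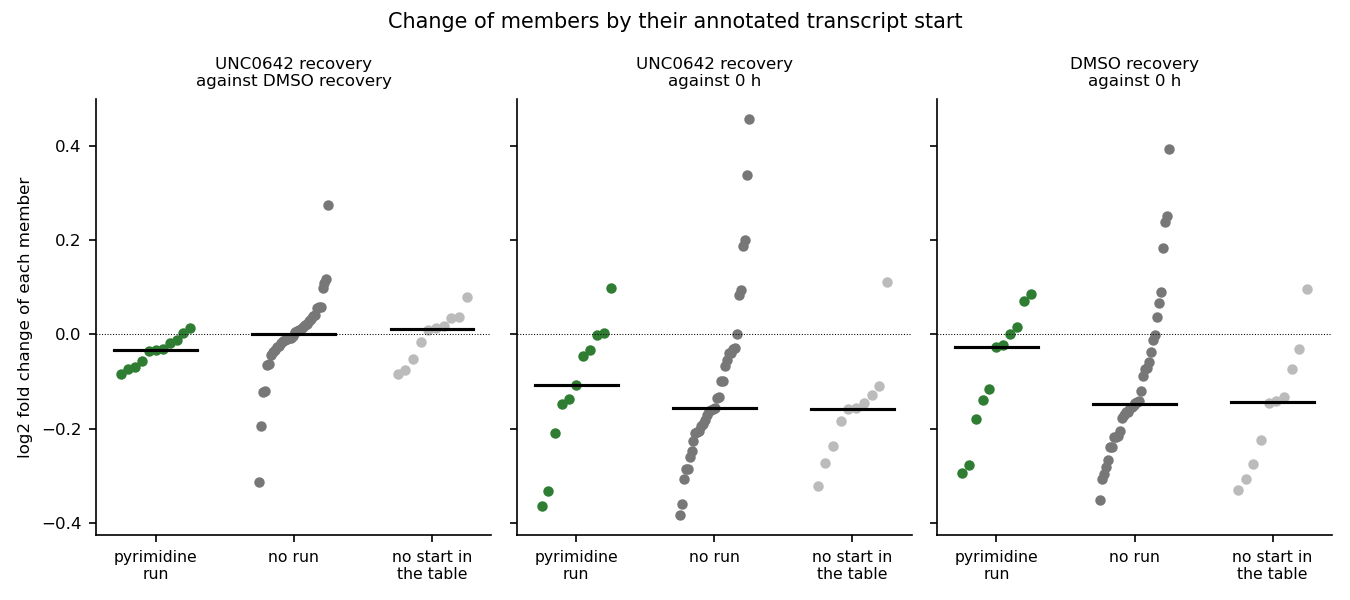
Log2 fold change of 57 members (EIF3CL left out) in each comparison, split by whether an annotated start has a pyrimidine run of at least 5 bases beginning with C, has none, or is not in the table used, with the median of each class as a bar. With a run the medians are -0.03, -0.11 and -0.03 in UNC0642 against DMSO, UNC0642 against 0 h and DMSO against 0 h, and without one they are 0.00, -0.16 and -0.15.

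Regulators of these factors were also measured. Of 7 genes for eIF2 kinases, the eEF2 kinase and the phosphatase subunits that undo eIF2 phosphorylation, 1 rose and 1 fell after UNC0642 recovery, and 3 rose and 2 fell after DMSO recovery, where 47% of all genes tested were called with UNC0642 and 44.1% with DMSO. EEF2K, whose kinase switches eEF2 off, rose to 82.3 ± 2.12 CPM after UNC0642 recovery and 81.3 ± 2.84 CPM after DMSO recovery, against 69.6 ± 1.93 CPM at 0 h (0.24 ± 0.04 with UNC0642, adjusted p = 4.16e-06, and 0.23 ± 0.04 with DMSO, adjusted p = 1.63e-05). PPP1R15A (GADD34), the stress-induced phosphatase subunit, fell to 47.7 ± 2.34 CPM after UNC0642 recovery and 44.1 ± 1.49 CPM after DMSO recovery, against 56.6 ± 1.86 CPM at 0 h (-0.24 ± 0.05 with UNC0642 and -0.36 ± 0.05 with DMSO). PPP1R15B, the constitutive phosphatase subunit, was at -0.04 ± 0.03 after UNC0642 recovery (adjusted p = 0.314) and fell after DMSO recovery (-0.11 ± 0.03, adjusted p = 0.00805), and its call was lost without DMSO replicate 1 (-0.08, adjusted p = 0.0601). None of the 7 was called between UNC0642 and DMSO.

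Among 12 genes that link mTORC1 to translation, 4 fell and 1 rose after UNC0642 recovery, and 3 fell and 2 rose after DMSO recovery, a share called no higher than that of all genes tested (47% with UNC0642 and 44.1% with DMSO). RPTOR, the mTORC1 scaffold, changed by -0.15 ± 0.04 with UNC0642 and -0.17 ± 0.04 with DMSO, MLST8 by -0.19 ± 0.05 with UNC0642 and -0.18 ± 0.05 with DMSO, and RPS6, the ribosomal target of S6 kinase, by -0.19 ± 0.02 with UNC0642 and -0.15 ± 0.02 with DMSO. Of 5 genes for poly(A)-binding proteins and partners, 2 fell after UNC0642 recovery, and 3 fell and 1 rose after DMSO recovery, where 23.6% of all genes tested fell with UNC0642, and 21.7% fell and 22.4% rose with DMSO. The gene that rose was PAIP2 (0.09, adjusted p = 0.0491), a call lost without 0 h replicates 1 or 3, DMSO replicates 1, 2 or 3 or UNC0642 replicate 1 (adjusted p 0.0551 to 0.207), with DESeq2 (adjusted p = 0.0711) and with its size factors in edgeR (adjusted p = 0.0599). PAIP2, which keeps the poly(A)-binding protein off mRNA, was 93.4 ± 3.30 CPM after UNC0642 recovery and 103 ± 1.47 CPM after DMSO recovery, the called difference of this list between those groups (-0.14 ± 0.04, adjusted p = 0.0189). That call was lost without DMSO replicates 1, 2 or 3 or UNC0642 replicate 3 (adjusted p 0.0505 to 0.0964).

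Of 8 tested genes for termination, recycling and scanning helpers, 6 fell after UNC0642 recovery and 5 after DMSO recovery, where 23.6% and 21.7% of all genes tested fell, with the release factor gene ETF1 at -0.19 ± 0.02 with UNC0642 and -0.22 ± 0.02 with DMSO. Of the 2 enzymes that build hypusine on eIF5A, DOHH fell (-0.19 ± 0.05 with UNC0642 and -0.24 ± 0.05 with DMSO) and DHPS did not pass the test (-0.02 ± 0.04 with UNC0642 and 0.03 ± 0.04 with DMSO). Among 4 measured genes of methyltransferases that act on the factors, 2 fell and 1 rose with UNC0642, and 2 fell with DMSO. Among all genes tested, 23.6% fell and 23.4% rose with UNC0642, and 21.7% fell with DMSO. METTL10 fell by 0.19 with UNC0642 and by 0.22 with DMSO on the log2 scale. METTL13 fell by 0.13 in each comparison with 0 h (calls lost with library totals, adjusted p = 0.121 with UNC0642 and adjusted p = 0.0885 with DMSO). FAM86A rose with UNC0642 (0.13 ± 0.05, adjusted p = 0.0269), a call lost without any of 5 libraries (0 h replicates 2, 3 or 4, UNC0642 replicates 2 or 3, adjusted p 0.0551 to 0.116). With DMSO its change was 0.11 ± 0.05 (adjusted p = 0.0658), and it was called with library totals (0.16, adjusted p = 0.00669). Between UNC0642 and DMSO it was 0.02 ± 0.05 (adjusted p = 0.891). Mitochondrial translation factors fell in 5 of 9 genes after UNC0642 recovery and 3 of 9 after DMSO recovery, where 23.6% and 21.7% of all genes tested fell, with MTIF2 at -0.24 ± 0.04 with UNC0642 and -0.25 ± 0.04 with DMSO and TUFM at -0.18 ± 0.02 with UNC0642 and -0.14 ± 0.02 with DMSO.

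Counts for other parts of the machinery are given beside those of the factors, with no test of the difference. Of 85 tested ribosomal protein genes 79 fell and 2 rose after UNC0642 recovery and 75 fell and 3 rose after DMSO recovery, with medians of -0.25 with UNC0642 and -0.20 with DMSO. Of 20 cytosolic aminoacyl-tRNA synthetase genes 15 fell with UNC0642 and 13 with DMSO and none rose, with medians of -0.16 with UNC0642 and -0.13 with DMSO. Of all genes tested, 23.6% fell and 23.4% rose with UNC0642 over 0 h, and 21.7% fell and 22.4% rose with DMSO. Between UNC0642 and DMSO recovery 5 of 85 ribosomal protein genes fell, with a median of -0.05, where 2.53% of all genes tested fell. None of the 20 synthetase genes was called there, where 4.58% of all genes tested were.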

How the data were processed

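RNA-seq of HCT116 cells was analysed in 12 libraries, 4 each of UNC0642 recovery, DMSO recovery and 0 h. Per the file headers, each deposited table gives the authors' expected counts (estimated by RSEM and not normalized), their FPKM (scaled to effective length and library total), and gene and effective lengths in bases, averaged over isoforms. The submitters' processing notes name RSEM 1.2.4 and Bowtie, with the genome build hg18. Whether counting used strand is not given in the sources used here, and reads of near-identical copies may be divided wrongly. The deposited TPM was not used. The common spread between libraries beyond counting error was 3.44%.

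Expected counts were rounded to whole numbers and filtered on low counts with filterByExpr, scaled by TMM and fitted in edgeR 4.0.16 (R 4.3.3, quasi-likelihood test, 1 fit of 12 libraries, no block). P-values were adjusted by Benjamini-Hochberg over all 12741 genes tested, and a gene was called at an adjusted p under 0.05. Such a p stands in the text as "adjusted p", each ± beside a log2 fold change is an SE, and each ± beside CPM, FPKM or bases is an SD of 4 libraries. CPM per library is TMM-scaled. Lengths were tested with limma 3.58.1 on log2 values, and FPKM as log2(FPKM + 1), where 1 is the pseudocount, which understates changes of low genes.

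Values in every library were planned for up to 6 called genes with the smallest p in each direction and comparison. They were also planned for all calls between UNC0642 and DMSO, for the most abundant gene of each role and for paralog pairs. Of these, EIF1B, EIF2A, EIF2C2, EIF4A3, EIF4G1, EIF4G3 and EIF5A2 are given as a mean and SD only. EIF2C3 is given mainly by its change, and EIF1AD by its calls. Other members are named to account for them, and up to 3 genes of each regulator list. The members and lists were chosen with earlier results of these data known. Starts come from RefSeq on GRCh38.p14, matched by current symbol, for 47 of 58 genes, and no coordinates of hg18 were used. Every pair of libraries of a group differed by more than counting error (chi-square over degrees of freedom of 2.03 or more). Alternatives were other scalings (DESeq2 1.42.0 size factors, library totals), filters, length corrections, tests (DESeq2, limma-voom), a replicate block, libraries left out, and a covariate for the length gap.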

Additional observations from a re-analysis of the deposited data

Results flagged for a closer look

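In 9 of 174 groups of 4 libraries (58 genes in 3 groups), 1 library stood apart from the other 3 by Dixon's test (critical value 0.829), where chance flags about 1 group in 20. After UNC0642 recovery, EIF3H had 333 CPM in replicate 1 (the others 317 to 319 CPM) and EIF4A2 had 199 CPM in replicate 3 (207 to 208 CPM). After DMSO recovery, EEF1D had 405 CPM in replicate 2 (416 to 419 CPM) and EIF4E had 173 CPM in replicate 3 (175 to 176 CPM). At 0 h, EIF3K had 158 CPM in replicate 1 (147 to 148 CPM), EIF4E3 had 9.73 CPM in replicate 1 (7.88 to 8.14 CPM) and EIF2C3 had 17.8 CPM in replicate 3 (14.65 to 14.97 CPM). EIF5AL1 had 66.9 CPM in 0 h replicate 4 (60.0 to 61.0 CPM). EIF3CL had 0 CPM in 0 h replicate 2 (4.87 to 4.98 CPM). Flags fell on 8 different libraries, and none of the called directions of EIF3H, EIF3K, EEF1D, EIF4E or EIF5AL1 against 0 h was turned by leaving a library out.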

How the results depend on the processing

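The lower direction of the members against 0 h held under every alternative run, those with a single library in a group included, with 30 to 38 lower after UNC0642 recovery (35 to 38 without 1 library) and 28 to 36 after DMSO recovery (34 to 35). Members higher with UNC0642 over 0 h numbered 8 with library totals, 9 with log2(FPKM + 1) and 2 in the long-gap libraries alone (4 to 6 without 1 library). Their median log2 fold change was -0.0928 with totals, -0.0904 with log2(FPKM + 1), -0.18 and -0.13 in the long-gap and short-gap libraries alone (-0.16 to -0.14 without 1 library). With DMSO over 0 h, 3 were higher without the libraries over 1 CPM of COL1A2 (which leaves 2 UNC0642, 3 DMSO and 1 0 h library, the lone one assumed to vary like the others) and 2 in the short-gap libraries (4 to 6 without 1 library). That median was -0.0891 with totals, -0.12 with the gene-length trend, -0.0830 with log2(FPKM + 1) and -0.16 in the long-gap libraries (-0.15 to -0.14). Between UNC0642 and DMSO, 2 were higher with no filter or the length trend (1 to 2 without 1 library, 2 without UNC0642 replicate 3). Lower were 5 with no filter, 1 without the COL1A2 libraries, 1 in the long-gap and 0 in the short-gap libraries (1 to 4 without 1 library, 1 without DMSO replicate 3), and the median was -0.0122 to 0.00248 without 1 library.

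For isoform-weighted length, 1 member was called with DMSO when the length gap was a covariate (0 to 1 without 1 library, 1 without 0 h replicate 4), and 1 to 2 with UNC0642 without 1 library. Same-numbered libraries showed little shared deviation over all genes tested (r from -0.103 to 0.0445 over 12 pairs). No label says that the numbers pair them, and these correlations cannot show that they were handled apart. With the replicate block, 5 members rose and 37 fell with UNC0642, 6 and 35 with DMSO, 1 and 4 between them, and 1 length call was left with UNC0642. The direction with UNC0642 over 0 h turned for EIF4B (0.0581 with totals and 0.0582 with log2(FPKM + 1), adjusted p = 0.0121 and 0.0183) and EEF2 (0.0125 and 0.0129, not called). Of 6126 values for single genes under alternatives, 5899 kept direction and call, 171 lost a call, 52 gained one and 4 turned. The cause was not tested. Gap-class splits and summed copies were chosen after the data were seen.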
